A study of Mus musculus with 2 samples.

Results

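Small nuclear RNAs (snRNAs) of the spliceosome were counted in RNA from the nucleoplasm of mouse macrophages. The genes described were selected on their counts: a gene was taken when its transcript class was snRNA and its expected count, averaged over both libraries, was at least 5. Of 1383 snRNA genes among 55536 annotated genes, 30 passed this limit. The counts that chose these genes are given as a description, with no test. The cells were bone marrow-derived macrophages of strain C57BL/6J, primary cells grown from bone marrow, and both libraries came from cells given Lipid A at 100 ng/ml for 30 min. Lipid A is the part of bacterial lipopolysaccharide that the receptor TLR4 binds. There was 1 group of 2 libraries made by total RNA sequencing after ribosomal RNA depletion, labelled biological replicates 1 and 2, and an untreated sample was not analysed here. Age and sex were not recorded, and both replicates cite a common donor entry. Replicate 1 started from 1 µg of RNA and replicate 2 from 500 ng. The sample descriptions call the fraction nucleoplasmic, whereas other labels call it nuclear. The labels call the replicates biological without naming separate cultures, and differences between them may be technical.

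Each snRNA is the RNA core of a small ribonucleoprotein (snRNP). U1 pairs with the 5′ splice site of an intron and U2 with the branch point. U4 pairs with U6 and holds it inactive, and both enter the spliceosome together with U5. U11, U12, U4atac and U6atac do the corresponding work on the rare minor class of introns, and U7 acts in histone mRNA 3′ end formation rather than in splicing. Most of these RNAs are made by RNA polymerase II from repeated gene copies, exported to the cytoplasm, fitted with a ring of Sm proteins at the Sm site, and returned to the nucleus.

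The 30 genes were 16 copies of U1, 11 of U2, 2 of U4 and the single gene Rnu12, which encodes U12. They held only 16 distinct sequences: 6 of U1, 7 of U2, 2 of U4 and 1 of U12. The other snRNA types had no member. The sequences that the results turn on are printed first, since the copies differ by a few bases and reads are divided among them by those bases. They are the transcript sequences of GENCODE M21 on mm10, 5′ to 3′ on the gene's own strand, with DNA letters.

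Among the U1 genes, Rnu1a1 (chr11:87422867-87423030, plus strand) has the sequence carried by 7 members. Gm22513 (chr12:54696782-54696945, plus strand) had the most counts of any single U1 gene, Gm22614 (chr3:96488729-96488893, plus strand) stands for another group of identical copies, and Rnu1b6 (chr3:96460024-96460189, minus strand) is the U1 sequence farthest from Rnu1a1. Capitals mark the bases that pair with the 5′ splice site, and all 4 sequences share them.
Rnu1a1: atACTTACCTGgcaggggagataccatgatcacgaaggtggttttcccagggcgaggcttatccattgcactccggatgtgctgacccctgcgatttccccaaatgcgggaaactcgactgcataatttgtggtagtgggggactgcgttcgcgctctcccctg
Gm22513: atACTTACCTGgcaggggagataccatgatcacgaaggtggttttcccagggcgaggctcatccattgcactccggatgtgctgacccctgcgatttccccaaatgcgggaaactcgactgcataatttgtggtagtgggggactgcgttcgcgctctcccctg
Gm22614: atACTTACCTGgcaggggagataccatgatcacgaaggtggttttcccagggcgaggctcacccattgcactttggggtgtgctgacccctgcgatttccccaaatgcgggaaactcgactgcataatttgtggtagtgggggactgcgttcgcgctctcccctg
Rnu1b6: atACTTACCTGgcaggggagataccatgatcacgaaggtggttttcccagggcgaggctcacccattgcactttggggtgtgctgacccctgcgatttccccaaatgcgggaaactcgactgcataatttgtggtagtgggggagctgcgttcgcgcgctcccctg

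Among the U2 genes, Rnu2-10 (chr11:101658238-101658428, plus strand) has the sequence of 4 members, and Gm25939 (chr1:72255008-72255198, plus strand) had the most counts of any single gene. Capitals mark the stretch that pairs with the branch point.
Rnu2-10: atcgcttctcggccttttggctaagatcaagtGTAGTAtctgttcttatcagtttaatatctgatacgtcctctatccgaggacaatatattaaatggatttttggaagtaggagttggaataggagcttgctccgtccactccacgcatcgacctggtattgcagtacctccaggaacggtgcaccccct
Gm25939: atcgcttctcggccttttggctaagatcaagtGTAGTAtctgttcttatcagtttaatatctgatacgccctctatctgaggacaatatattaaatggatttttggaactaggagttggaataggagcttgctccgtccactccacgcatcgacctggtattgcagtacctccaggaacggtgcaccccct

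For U4 the sequence of Gm24265 (chr5:115489459-115489599, plus strand) is shown, with capitals on the motif that identified the type, near its 5′ end. For U12 the sequence of Rnu12 (chr15:83149644-83149794, plus strand) is shown, with capitals on the bases that pair with the branch site of minor introns.
Gm24265: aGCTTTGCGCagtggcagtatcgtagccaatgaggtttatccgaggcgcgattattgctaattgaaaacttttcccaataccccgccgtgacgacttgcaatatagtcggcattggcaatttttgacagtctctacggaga
Rnu12: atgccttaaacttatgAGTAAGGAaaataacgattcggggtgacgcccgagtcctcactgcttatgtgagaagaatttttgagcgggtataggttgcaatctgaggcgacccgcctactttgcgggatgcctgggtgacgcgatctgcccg

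Positions are counted from 1 at the 5′ end of Rnu1a1 for U1, of Rnu2-10 for U2 and of Gm24265 for U4. Against Rnu1a1, Gm22513 carried T60C alone and Gm24305 carried A26G alone. Gm22614 and Gm25890 were identical to each other and carried T60C, T62C, C73T, C74T and A77G with 1 inserted or deleted base. Rnu1b1 and Rnu1b2, again identical, carried the same changes and C33T. Rnu1b6, Gm24830 and Gm26232 had 8 edits from Rnu1a1, T156G among them. Against Rnu2-10, Gm23444 and Gm23472 carried G109C alone, Gm25939 carried T69C, C78T and G109C, and Gm24497 carried G109C and C186A. Gm25360 carried C78T, A95G, G109C and C154T, Gm26316 carried C170T alone, and Gm22973 had 9 edits. The U4 gene Gm24407 differed from Gm24265 by G88A and C99A.

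All 30 members held the exact motif of their type. Members without a symbol beginning Rnu were typed by that motif, so for them the match was fixed in advance. All 30 also held an Sm-like site, searched as ATTTNTG on the transcript strand. This Sm-like motif occurred in 283 of the 1383 snRNA genes (20.5%). Among the 242 other snRNA genes to which both gene tables gave an effective length above 0, it occurred in 98 (40.5%). Types were assigned by symbol first, then by a motif (ACTTACCTG for U1, CTTCTCGGC or GTAGTATC for U2, GCTTTGCGC for U4, TGCCTTAAA for U12), then by alignment, all on the transcript strand. These motifs occurred in 3.98% (U1), 1.30% and 2.31% (the 2 of U2), 0.723% (U4) and 0.217% (U12) of all snRNA genes. A match is a description of the letters and not evidence of activity. The U1 members had 0 to 8 edits from Rnu1a1 (median 1), against 1 to 58 edits (median 42) in the 135 other U1-type genes with an effective length above 0 in both libraries. For U2 the members had 0 to 9 edits from Rnu2-10 and the 28 other such genes 2 to 102 (median 57.5).

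The members lie in a few clusters (coordinates in mm10). A stretch of 41.8 kb on chromosome 12, chr12:54696782-54738622, held 7 U1 genes and 67.0% and 67.7% of the U1 counts in replicates 1 and 2. Another 7 U1 genes, which all carry T62C, lie within 160 kb at chr3:96328425-96488893 and held 17.3% and 16.3%. The remaining 2, Rnu1a1 and Gm22068, lie at chr11:87422867-87426879 with 15.7% and 16.1%. Most of the chromosome 12 genes have the same sequence as these 2, and every copy of it was given an equal count. The split of U1 counts between chromosomes 11 and 12 is therefore no measurement of either cluster. U2 had 5 members at chr11:101604850-101658428 and 4 at chr1:72226240-72255198, with Gm23444 (chr11:83271498-83271688) and Gm22973 (chr12:59040335-59040525) apart. Both U4 genes lie within 0.936 kb on chromosome 5. Of the 30 members, 22 overlapped no other annotated gene and 6 overlapped a gene of the same strand. Those 6 lie in D230017M19Rik (5 and 13 expected counts), Rdm1 (30 and 24) and Tex14 (9 and 1), so each of these neighbours had far fewer counts than the snRNA genes inside it. The strand setting of the counting is not stated in the labels or headers.

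The members together had 31220.83 expected counts in replicate 1 and 35668.4 in replicate 2. That was 0.197% of the annotated counts in replicate 1, with a 95% Wilson interval of 0.195 to 0.199%, and 0.240% in replicate 2, with 0.237 to 0.242%, a mean of 0.218% ± 0.0302 (SD, n = 2). The intervals do not overlap, but each was computed within a single library. They leave out the spread between replicates and the uncertainty of assigning reads. No molecular identifiers separated molecules from PCR copies, so they may also understate the error of counting molecules. Annotated genes held 15846212 and 14874879 expected counts, and a gene at 0 could hold up to 3 counts, or 1.89e-05% and 2.02e-05% of these. The members held 99.96% and 99.94% of all counts given to snRNA genes in these gene tables. All 8 macrophage markers examined were detected in both libraries, at 24.75 to 1880 TPM (a length-scaled share of each library's transcripts), while markers of T cells, B cells, fibroblasts and erythroid cells were not and 1 of 4 neutrophil markers was, with a mean of 1.17 TPM. In bulk RNA, fewer cells of a type and less RNA per cell cannot be told apart.

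Annotated length separated the types. Effective length is the number of positions at which a fragment of the library could start in a transcript. For the long PhiX spike-in it was 229.25 bases below the full length in replicate 1 and 204.99 in replicate 2, and the labels give a size range of 250 to 400. All 30 members, of 141 to 191 bases, are shorter than those offsets. Their effective lengths were accordingly a few bases: 14.22 and 20.87 for U2, 6.07 and 9.74 for the 164-base U1 genes, 2.04 and 3.65 for U4, and 3.48 and 5.92 for Rnu12. The gene tables gave 1111 snRNA genes in replicate 1 and 1083 in replicate 2 an effective length of 0, and the longest of these had 130 and 122 bases. All 936 U6-type genes (54 to 120 bases), all 11 U5-type genes (116 to 117 bases) and all 63 U7-type genes (58 to 81 bases) were among them in both libraries. Their absence from the 30 genes is therefore no measurement of their RNA. Of the genes with an effective length of 0, only Gm23731 had counts, 0 and 3.

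**Figure D1:**
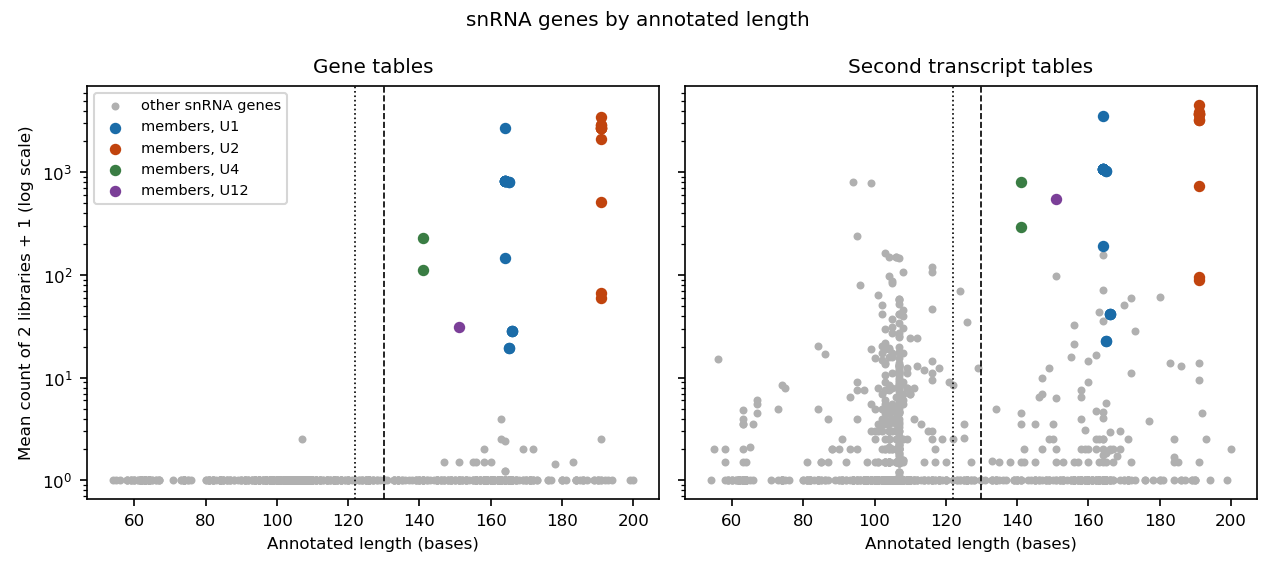
Mean count over the 2 libraries plus 1 (vertical, log scale) against annotated length in bases for all 1383 snRNA genes, in the gene tables (left) and the second transcript tables (right). Coloured points are the 30 members by type and grey points the other snRNA genes; the dashed and dotted lines stand at 130 and 122 bases, the longest snRNA gene with an effective length of 0 in replicates 1 and 2, and in the left panel every gene left of them but Gm23731 is at 0.

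The second transcript tables, made from the reads directly rather than from alignments, did give short genes counts. There, U6-type genes summed to 4234 and 3840 estimated counts and U5-type genes to 202 and 396. Of the U6-type counts, 1017 and 587 were on Gm25549, which lies in Mapkapk2 on its strand. Whether such reads came from the small RNA was not tested. Rnu5g, a named U5 gene of 116 bases, had 62.5 and 151 estimated counts against 0 and 0 expected counts. Rnu6 and Rnu7 stood at 0 in both kinds of table. Rnu11, of 134 bases, had an effective length just above 0 (1.3 and 2.42) and stood at 0 expected and 0 estimated counts in both libraries. At so short an effective length the 0 of the gene tables says little about its RNA. That limit does not cover the 0 of the second tables, which gave counts to the shorter Rnu5g. In these second tables the members held 85.1% and 89.8% of the estimated counts of snRNA genes, below their share in the gene tables.

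No snRNA gene lay near the limit of 5. Just inside it, Rnu1b1 and Rnu1b2 each had 14.68 and 22.22 expected counts in replicates 1 and 2, and Gm24830 had 27.92 and 27.31. Just outside, Gm24145 had 3 and 3, while Gm25184 (0 and 3), Gm23731 (0 and 3) and Gm25813 (1 and 2) tied at the next mean. Close relatives of the members were among the genes outside. The nearest were Gm24924 and Gm26244, each 1 edit from Rnu1a1 and each given 0.09 and 0.39 expected counts. In the second tables Gm24924 had 138 and 173 estimated counts and Gm26244 had 68.8 and 0. Gm25813 is 2 edits from Rnu2-10. Gm23238, 4 edits from Rnu1a1, had 0 and 2.85 expected counts against 106 and 35.8 estimated counts. Estimated counts were 51 and 35 for Gm24145, 71.2 and 222 for Gm23731, and 13.2 and 12.4 for Gm25813. For these 3 genes and for Gm24924, Gm26244 and Gm23238 the exclusion thus holds for the gene tables only. Gm25184, with 0 and 3 estimated counts, was below a mean of 5 in both kinds of table.

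U1, which recognises the 5′ splice site, summed to 8006.81 expected counts in replicate 1 and 12642.39 in replicate 2, or 0.0505% and 0.0850% of the annotated counts. After TMM scaling, which sets the libraries level on the bulk of genes, the log2 ratio of replicate 2 to replicate 1 was 0.72. In the second transcript tables U1 had 8725 and 18385 estimated counts and a log2 ratio of 0.89. Replicate 2 was thus higher in U1 by both counts, though the size of the gap differed. Replicate 2 also started from less RNA (500 ng against 1 µg) and had shorter fragments by the PhiX offsets given above; their part in the gap was not tested. By TPM of the gene tables U1 had 76495 and 61852, with replicate 2 lower (log2 ratio -0.31). TPM divides each count by the effective length, which was larger in replicate 2 for every member.

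The 7 identical U1 copies (Gm22068, Gm22317, Gm22634, Gm23804, Gm25679, Gm26444 and Rnu1a1) together had 4400.13 and 7106.89 expected counts. Each copy was given exactly the same number, 628.59 and 1015.27, so no copy of this group was measured apart from the others. The T60C copy Gm22513 had 2098.01 and 3310.49, which is 26.2% of the U1 counts in both libraries. Gm22614 and Gm25890 were each given 634.44 and 965.81. The 3 leading U1 sequences had log2 ratios of 0.76 (the 7 copies), 0.72 (Gm22513) and 0.67 (Gm22614 and Gm25890), so they were higher in replicate 2 by similar amounts. The second tables gave 0.93, 0.88 and 0.85. The balance of U1 sequences was nearly the same in both libraries: the 7 copies held 55.0% and 56.2% of U1 counts.

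U1 genes carrying T62C, all on chromosome 3 and including the genes named Rnu1b, held 17.3% of U1 counts in replicate 1, with a Wilson interval of 16.4 to 18.1%, and 16.3% in replicate 2, with 15.6 to 16.9%. The intervals overlap. The second tables gave 17.4% and 16.1%. Mouse U1b RNAs are variants known best from embryonic tissues. The genes that bear that name, with Gm24830 and Gm26232, were the lowest of the U1 members. Rnu1b6, Gm24830 and Gm26232, which are identical, had 27.92 and 27.31 expected counts each, and Rnu1b1 and Rnu1b2 had 14.68 and 22.22 each. Most of the T62C counts were therefore on Gm22614 and Gm25890, which differ from Rnu1b1 by T33C only, counted from the 5′ end of Rnu1b1. The low counts of the genes named Rnu1b are thus no measure of all sequences like theirs. Gm24305, with A26G, stood at 126.67 and 167.02.

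**Figure D2:**
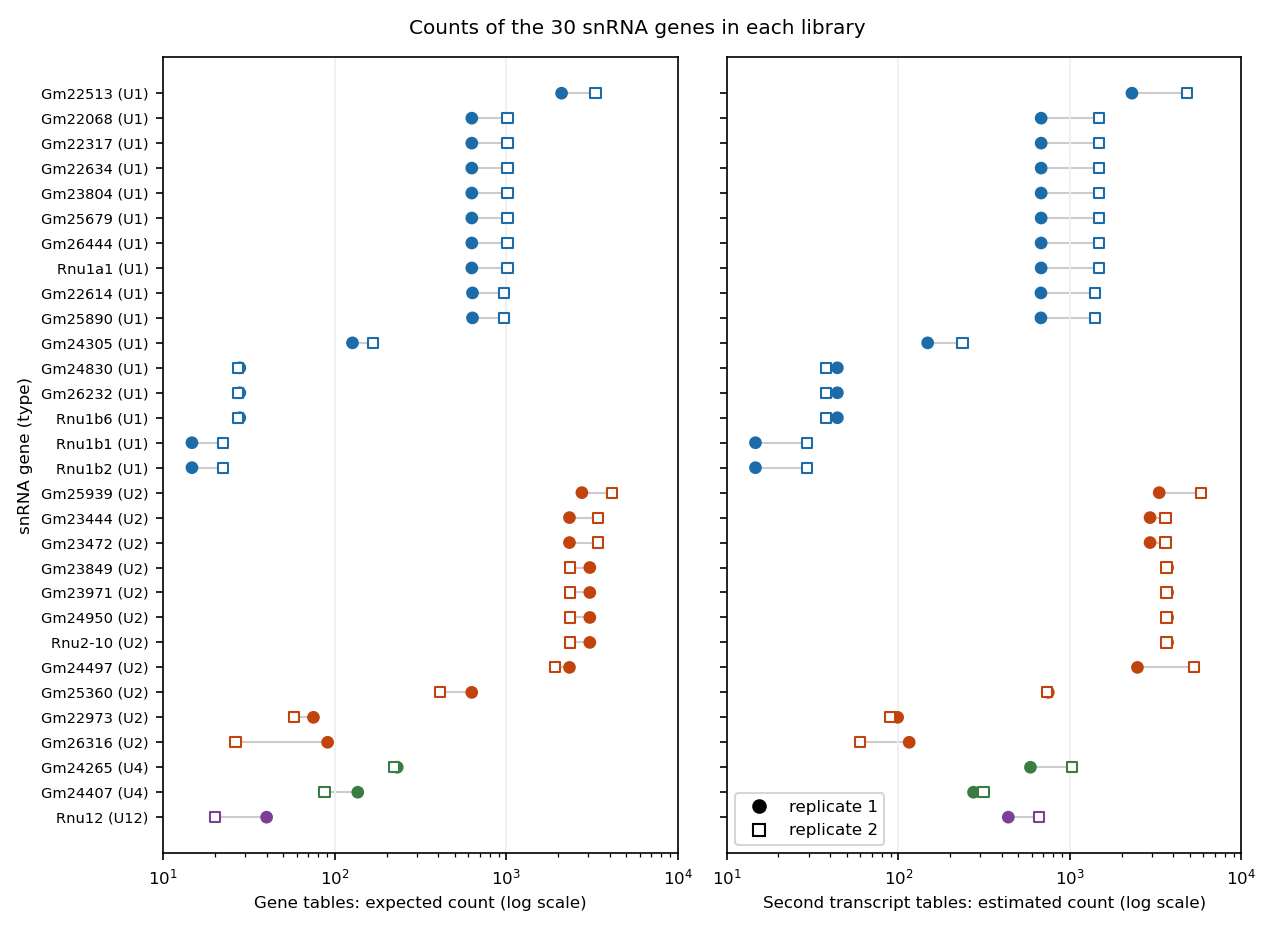
Counts of each of the 30 members (rows, with type) in replicate 1 (filled circles) and replicate 2 (open squares), with expected counts of the gene tables (left) and estimated counts of the second transcript tables (right), both on log axes. Identical copies sit at identical values, the U1 genes from Gm22513 to Gm24305 are higher in replicate 2, and the 4 copies like Rnu2-10 are lower in replicate 2 on the left and close together on the right.

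U2, which pairs with the branch point, was the most counted type, with 22807.02 and 22698.01 expected counts, or 73.1% and 63.6% of the member counts. Its sum hardly differed between the libraries, with a log2 ratio of 0.06 (0.11 in the second tables). U1 therefore made up 25.6% of the member counts in replicate 1 and 35.4% in replicate 2. The ratio of U1 to U2 counts was 0.351 and 0.557, and by estimated counts 0.318 and 0.543. Per length, as the ratio of summed TPM, it was 0.817 and 1.19 in the gene tables and 0.419 and 0.757 in the second tables. Replicate 2 had the higher ratio by all 4 measures, but whether U1 or U2 was the more abundant RNA per length in replicate 2 differed between the tables.

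Within U2 the copies differed between the libraries in opposite directions. The 4 copies identical to Rnu2-10 (with Gm23849, Gm23971 and Gm24950) summed to 12261.2 and 9348.6 expected counts, a log2 ratio of -0.33. Gm25939 had 2755.28 and 4136.55 (0.65), and the identical genes Gm23444 and Gm23472 had 2332.28 and 3403.33 each (0.61). In the second tables the ratio of Gm23444 and Gm23472 was only 0.11. The 5 genes with G109C together held 45.5% of the U2 counts in replicate 1, with a Wilson interval of 44.9 to 46.2%, and 58.4% in replicate 2, with 57.8 to 59.1%. In the second tables their share was 45.2% and 56.3%. The share of G109C copies was thus higher in replicate 2 in both tables. The intervals leave out the uncertainty of assigning reads and any spread between replicates, and with 2 libraries there was no test of the difference. Of the 5, Gm25360 (log2 ratio -0.55) and Gm24497 (-0.22) were lower in replicate 2 in the gene tables.

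How the G109C counts were divided among genes did depend on the table. Gm24497 was given 2332.28 expected counts in replicate 1, the same number as Gm23444 and Gm23472, although it differs from them by C186A. In replicate 2 it had 1912.74 against their 3403.33. The second tables gave Gm24497 2477 and 5294 estimated counts against 2933 and 3612 for each of the others. Its log2 ratio was -0.22 in the gene tables and 0.91 in the second tables, so no direction can be given for this gene. Gm25939 had 0.65 and 0.61 in the 2 kinds of table.

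**Figure D3:**
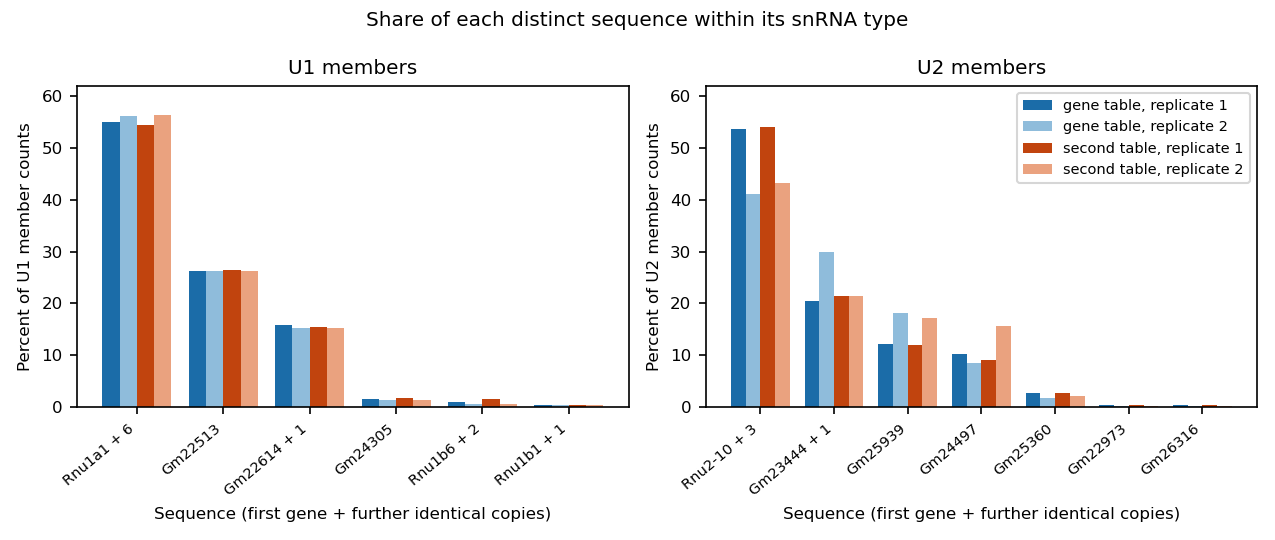
Share of each distinct sequence in the counts of U1 members (left) and U2 members (right), in percent, with bars for each library in the gene tables (blue) and the second transcript tables (orange). The U1 shares are close in all 4 bars, whereas the Rnu2-10 sequence holds 53.8% and 41.2% of U2 counts in replicates 1 and 2 of the gene tables and the Gm24497 share differs between tables.

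The remaining U2 genes were low. Gm25360 had 628 and 409.1 expected counts, Gm22973 had 75 and 58, and Gm26316 had 90.7 and 26.36. Gm26316, which differs from the Rnu2-10 sequence only by C170T and lies in the same cluster, was the only member beyond 2-fold between the libraries, with a log2 ratio of -1.72 (-1.14 in the second tables).

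The gene tables also give a posterior SD, the uncertainty of assigning reads among genes. For the 20 members that share their sequence with another it was 31.5 to 95.8% of the count in replicate 1 (median 54.6%) and 33.4 to 87.1% in replicate 2 (median 54.1%). For the 10 with a sequence of their own the medians were 0.0026% and 0.020%. The highest among those 10, 33.1% and 60.4%, was that of Gm24497. Counts of single copies within an identical group are therefore uncertain, and sums per sequence avoid that split. They do not settle it between sequences that are nearly identical. For Gm24497 the log2 ratio was -0.22 in the gene tables and 0.91 in the second tables. For the sum of Gm23444 and Gm23472 it was 0.61 and 0.11.

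U4, the partner of U6, was represented by Gm24265 with 231 and 221 expected counts and Gm24407 with 136 and 87. The type summed to 367 and 308, with a log2 ratio of -0.19, whereas the second tables gave 863 and 1345 estimated counts and a log2 ratio of 0.45. Rnu12, the U12 gene of the minor spliceosome, had 40 and 20 expected counts but 437 and 662 estimated counts. Its second-table count was 10.9 and 33.1 times the expected count, the widest gap of any member, and its log2 ratio was -0.93 in the gene tables and 0.41 in the second tables. The direction between the libraries was thus opposite in the 2 kinds of table for both types, and none is claimed. For U1 the second-table sum was 1.09 and 1.45 times the expected sum and for U2 1.20 and 1.49 times, while over all annotated genes it was 1.38 and 1.74 times.

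**Figure D4:**
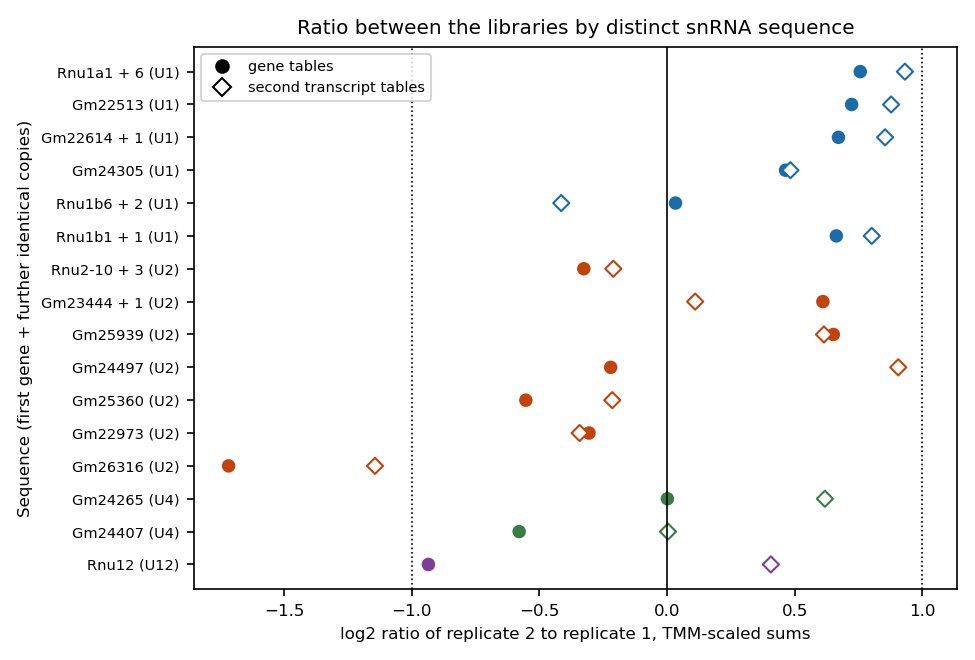
TMM-scaled log2 ratio of replicate 2 to replicate 1 (horizontal) for the counts summed over each of the 16 distinct sequences (rows, coloured by type), in the gene tables (circles) and the second transcript tables (diamonds). Dotted lines mark 2-fold; the 3 leading U1 sequences lie between 0.67 and 0.93, Gm26316 lies beyond -1 in both tables, and Gm24497 and Rnu12 lie on opposite sides of 0.

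Of the 30 members, 24 had a mean of at least 50 expected counts. None of these was beyond 2-fold higher in replicate 2, where 5.2% of the 10444 genes at that level were, and 1 was beyond 2-fold lower, Gm26316, where 3.79% were. By estimated counts, 25 members reached that level, of which 0 were beyond 2-fold higher (5.34% of 16349 genes) and 1, again Gm26316, was lower (3.96%). In the gene tables the median log2 ratio of the 24 members was 0.61, with 15 above 0 and 9 below, against -0.03 over all genes. By estimated counts that of the 25 was also 0.61, with 18 above 0 and 7 below, against -0.02 over all genes. Both medians count identical copies as separate genes. Over 1 sum per sequence the gene-table median was 0.02, and that of the second tables was not taken. By TPM the median over the 24 members was -0.36, and 10 of them were beyond 2-fold lower. The 4 identical copies of the Rnu2-10 sequence, at -1.23 each, were among the 10. The share of all genes beyond 2-fold by TPM was not taken, so this count has no background beside it. Only 5 other genes of 141 to 191 bases had a mean of at least 50 counts, all of them small nucleolar RNA genes, and their median log2 ratio was -1.05.

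The genes of the snRNP proteins and of snRNA synthesis and assembly were then examined as a list of 104. Of these, 86 were detected, at 1 TPM or more in each library, and the median of mean TPM was 4.44. Here too the values describe levels, since an untreated sample was not analysed here. At a mean of at least 50 counts there were 72, of which 1 was beyond 2-fold higher in replicate 2 and 0 lower, where 5.2% and 3.79% of all genes were. The gene was Phf5a, a U2 SF3b subunit, with 31 and 77 expected counts (log2 ratio 1.38). The median log2 ratio of the 72 genes was 0.04, with 40 above 0 and 32 below. The values given next are TPM, a level scaled for length. They describe the RNA of this fraction, and mRNA in the cytoplasm was not measured. The snRNA members held 18.1% and 11.8% of the total TPM in replicates 1 and 2, which lowers the TPM of every other gene.

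All 3 U1 protein genes were detected, led by Snrnp70, which binds the first stem of U1, at 150.81 and 76.64 TPM. Of 12 U2 protein genes 11 were detected, led by Sf3b1, the SF3b subunit that clamps the branch site helix, at 206.72 and 103.76 TPM. Both values were lower in replicate 2. The 8 genes of U4/U6 and the tri-snRNP were all detected, led by Sart1 at 18.69 and 14.59 TPM. U5 protein genes were detected in 7 of 8 cases, led by the helicase gene Ddx23 at 20.38 and 14.21 TPM, although no U5 RNA gene could be counted in the gene tables. Of the minor spliceosome proteins 7 of 8 were detected, led by Zrsr2, which recognises the 3′ splice site of minor introns, at 43.17 and 21.53 TPM.

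The Sm genes, whose ring the Sm site binds, were low: 5 of 8 were detected and the highest, Snrpe, stood at 8.03 and 6.35 TPM. The LSm ring of U6 had 6 of 7 detected, led by Lsm4 at 4.10 and 5.67 TPM, and of the U7 variants Lsm10 was detected at 4.04 and 2.47 TPM. Transcription factors of snRNA genes were detected in 9 of 12 cases, led by the SNAPc subunit gene Snapc3 at 28.3 ± 10.4 TPM (SD, n = 2). All 14 genes of Integrator, the complex that cuts the 3′ end of snRNA precursors, were detected, led by Ints6 at 61.4 and 33.63 TPM. Export, assembly and maturation genes were detected in 15 of 22 cases, led by Ssb, which encodes the La protein, at 21.12 and 21.33 TPM. Snrpd2, Snrpf, Snrpn, Lsm5, Lsm11, Sf3b5, Txnl4a, Snrnp25, Snapc2, Snapc5 and Brf2 did not reach the detection limit in both libraries of the gene tables. Neither did Gemin2, Gemin4, Gemin6, Gemin8, Ddx20, Snupn and Coil, which act in snRNP assembly, import or Cajal bodies. By TPM of the second tables, 82 of the 104 genes were detected. The genes just named that passed there in both libraries were Txnl4a (4.18 and 2.60 TPM), Brf2 (1.12 and 1.37), Gemin2 (1.68 and 1.29) and Gemin8 (1.41 and 2.79). Conversely, Snrpd3, Snrpg, Lsm2, Zmat5, Ints5, Phax, Gemin5 and Mettl4 were detected in the gene tables but not there. Ints5 stood at 0.58 and 0.54 TPM, so Integrator was not detected in full in the second tables.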

How the data were processed

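Total RNA was sequenced from 2 libraries of 1 group. Per the file headers and the deposited text files, the authors made a gene table from a transcriptome alignment and a further transcript table from the reads directly, on mm10 with GENCODE M21. In the deposited gene tables the values are expected counts, TPM, effective length and the posterior SD of the count, and the second deposited transcript tables give estimated counts and TPM, summed here per gene. The first transcript tables were not used. The tools and the strand setting are named in neither labels nor headers. Spike-ins and 26345 unannotated features stayed out of library sizes.

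The 30 members and the gene lists were chosen with earlier results of these data known. A single group allows no test between conditions, so no p-value is given. Rounded expected counts were scaled with TMM factors from edgeR 4.0.16 under R 4.3.3, with DESeq2 1.42.0 size factors as an alternative. Members beyond 2-fold were counted, and medians of the ratios taken, at a mean of at least 50 counts; ratios of single sequences and types are given at any count. In simulated counts with 200 changed genes the scaling was checked to recover the sign. Sequences were compared by edit distance, and a gene typed by alignment had an identity of at least 0.7. Clusters joined members of a type within 200 kb. Named members were the 3 most counted of each type, all with a symbol beginning Rnu, those beside the limit, and the largest ratios between libraries or tables; other members were named after their values were seen. Pathway genes named were the highest of each sublist, those not detected and those beyond 2-fold. Alternatives changed the count limit, scaling, unit, table and typing, and left out each library. Each library's expected counts, 15846212 and 14874879, set the counting precision.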

Additional observations from a re-analysis of the deposited data

How the results depend on the processing

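The depth limits Rnu12 and the Rnu1b genes most, with 14.68 to 40 expected counts, and identical copies limit every single-copy value. By estimated counts of the second tables, 188 snRNA genes reached the limit of 5, against 30. Over the original 30 members, U4 held 2.39% and U12 1.19% of the estimated counts. With TPM the members held 15.0% of the total, and U1, U2, U4 and U12 held 47.3%, 47.9%, 4.61% and 0.254% of it. TPM also reversed the median log2 ratio between the libraries, from 0.61 to -0.36. It put 10 members beyond 2-fold lower, with no share of all genes by TPM to set beside them. TPM divides by an effective length that was larger in replicate 2. The median was 0.64 by library size, 0.55 by DESeq2 size factors (which came out at 1 in both libraries and so scaled nothing), 0.54 at a mean of at least 10 counts or with no further limit, and 0.61 in the second tables. Chosen after seeing the data, DESeq2 factors from genes at 50 counts gave 0.64 and sums over identical sequences in the gene tables gave 0.017. At a TPM of at least 5, 43 of the 104 protein genes were detected. Leaving out each library gave 30 members, a member share of 0.197 to 0.240%, U1 at 25.6 to 35.4%, U2 at 63.6 to 73.1%, U4 at 0.864 to 1.18%, U12 at 0.0561 to 0.128% and 89 to 91 protein genes. Leaving out a library gives no ratio, so those results have no such value. No paired analysis was possible because there is 1 group.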

Other observations

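Among the snRNA genes outside the 30, the 20 with the most estimated counts in the second tables mostly lie in other genes: 18 overlapped another annotated gene and 8 of these lay on its strand. Overlap was counted for the 30 members and these 20 genes only, so no share of all snRNA genes stands beside it. Gm25549, a U6-type gene of 94 bases inside Mapkapk2, had 1017 and 587 estimated counts, while Mapkapk2 itself had 11942 and 3697 expected counts. Gm24996, a gene of 99 bases that matched no snRNA type, lies inside Nfe2l2 and had 737 and 848, with 11986 and 9021 for Nfe2l2. Whether the reads came from the small RNA or from the transcript around it was not tested. The U5-type gene Gm25099 overlapped no annotated gene and had 80.6 and 157 estimated counts.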
